A study of Ricinus communis with 6 samples.

Results

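A set of 140 castor genes stood high in libraries D1 and D3 of the dwarf variety 071113 and low in D2 of the same variety and in all 3 libraries of the high-stalk variety Zhuansihao. They were taken from 18875 gene rows by a rule on FPKM, fragment counts divided by transcript length and by library size, and were thus chosen by the levels themselves. The lower of D1 and D3, plus 1, had to be at least 3 times the highest of D2, L1, L2 and L3, plus 1, and LOC8259983 was left out. The members make up 0.742% of the rows, and the same ratio turned round, with D1 and D3 low, was met by 126 rows (0.668%). The height of D1 and D3 over the other libraries is a description here and was not tested.

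RNA came from internode tissue of field-grown plants with 8 to 10 leaves, the fifth internode of the main stem by the study's methods, and about 6 plants were dissected. The dwarf variety 071113 (D1, D2, D3) came from a cross of a dwarf variety with Zhebisi, and Zhuansihao (L1, L2, L3; spelled Zhansihao in the sample labels) from a cross of an Lm-type female line with Zhebisi. Neither variety was treated. The study calls the libraries of a variety biological replicates, and the labels do not say which plants went into which library. In bulk tissue, a change in the number of cells of a type and a change in RNA per cell cannot be told apart.

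Library D2 stands apart from its own variety. Over 16236 genes with at least 1 FPKM in at least 2 libraries, log2(FPKM + 1) correlated across genes at 0.978 between D1 and D3. Between D2 and these 2 libraries it correlated at 0.792 and 0.808. Between D2 and Zhuansihao the values were 0.958 for L1, 0.863 for L2 and 0.888 for L3, so D2 was closest to L1. Deviations from the variety mean also correlated across genes between D2 and L1, at 0.63. Correlations among L1, L2 and L3 are not given here, so whether L1 also stands apart from its variety is not shown. The study left D2 out of its comparison. The set is built on that split: in every member D2 lay well below D1 and D3, in some of them still above Zhuansihao, so the set cannot be read as a difference of the whole variety. Relative depth, from repeated ratios of low values, lay between 0.868 and 1.076 of that of D1. The numbers of fragments are not known.

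Only 4 of the 140 genes carry a name in the sources used here. The castor RefSeq table matched 139 members by ID and gave none of them a further name, so the other 136 are reported by ID and no function is given to them. Tissue and cell type markers could not be checked for the same reason. All 4 were picked by the study from its differential genes for quantitative PCR, which it reported to match the sequencing. HSP7C and PER, given below, were picked in the same way. The fields of the named members thus follow that choice and do not describe the set. The named members belong to 2 fields of plant cell biology. CLPB1 is a chaperone of the ClpB family, ring-shaped ATPases that pull proteins out of aggregates and hand them to HSP70 chaperones, and such genes are known for their part in heat tolerance. NAC, PME45 and PGLR are the study's cell wall genes. NAC proteins are plant transcription factors, several of which switch on secondary wall genes. Pectinesterases such as PME45 remove methyl groups from pectin, and polygalacturonases such as PGLR cut the pectin chain where those groups are gone.

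CLPB1 (LOC8284441) had 384 FPKM in D1 and 386.9 FPKM in D3, against 51.8 in D2, 5.53 in L1, 6.10 in L2 and 7.24 in L3. D1 and D3 were nearly equal, and D2 lay between them and Zhuansihao, at 8.24 times the Zhuansihao mean. NAC (LOC8265938) had 138.7 FPKM in D1 and 129.6 FPKM in D3, against 20.05 in D2, 15.1 in L1, 13.2 in L2 and 15.96 in L3. Here too D1 and D3 were alike, and D2 was the highest of the other 4 libraries, at 1.36 times the Zhuansihao mean.

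PME45 (LOC8288420) had 70.3 FPKM in D1 and 42.1 FPKM in D3, against 4.69 in D2, 7.26 in L1, 6.45 in L2 and 8.87 in L3. PGLR (LOC107262217) had 51.6 FPKM in D1 and 31.3 FPKM in D3, against 3.10 in D2, 5.45 in L1, 7.24 in L2 and 5.65 in L3. Both pectin genes differed from CLPB1 and NAC in shape: D1 was 1.67 and 1.64 times D3, and D2 was below each Zhuansihao library.

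**Figure D1:**
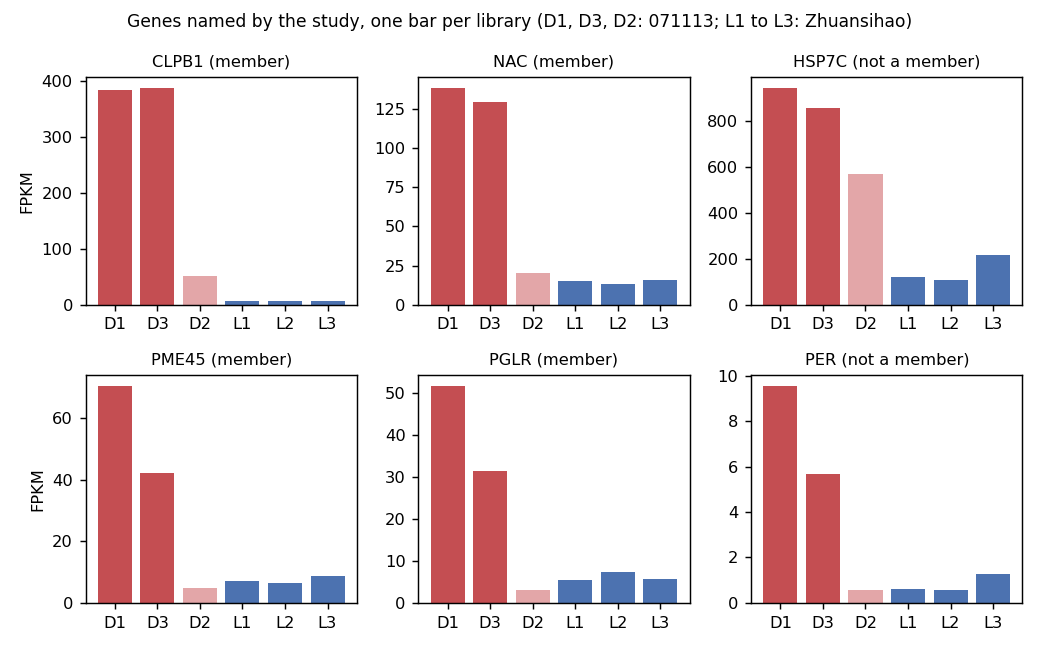
FPKM (y axis) of 6 genes named by the study in each library, 1 bar per library, with D1, D3 and D2 of 071113 in red and L1, L2 and L3 of Zhuansihao in blue. CLPB1 and NAC have near-equal bars in D1 and D3, PME45, PGLR and PER have D1 over D3 (D1 is 1.67, 1.64 and 1.68 times D3), and HSP7C stays high in D2 at 570.1 FPKM.

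The study names 34 genes by ID, of which 33 are in the table and 4 are members. Those closest to the set from outside were PER and peroxidase LOC8289058. Peroxidases couple lignin monomers in the wall. PER (LOC8258115) had 9.53 and 5.66 FPKM in D1 and D3, against 0.546 in D2 and 0.631, 0.584 and 1.26 in L1 to L3. Its rule ratio was 2.95, just under the threshold, and D1 was 1.68 times D3, near the ratios of PME45 and PGLR. Peroxidase LOC8289058 had the opposite order, with 6.25 and 8.76 FPKM in D1 and D3, against 1.54 in D2 and 0.860, 0.211 and 0.973 in L1 to L3, a rule ratio of 2.86.

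HSP7C (LOC8265956), of the HSP70 family that works with ClpB proteins, was high in D1 and D3 but is no member, since D2 shared most of its level. It had 944 and 857 FPKM in D1 and D3, against 570.1 in D2 and 122, 109 and 215 in L1 to L3, a rule ratio of 1.503. D2 thus stood at 3.84 times the Zhuansihao mean for this chaperone and at 8.24 times for CLPB1, while for the pectin enzymes PME45 and PGLR it stood at 0.623 and 0.506 times that mean. The study's other wall and lignin genes went both ways. D2 stood at 1.36 times that mean for NAC and 2.26 times for peroxidase LOC8289058. For PAL it stood at 2.01 (LOC8272514) and 2.17 times (LOC8272515), the latter at only 0.269 FPKM in D2. For the expansins it stood at 1.03 (EXPB3), 2.49 (EXLA2) and 2.36 times (EXPA4). For PER it stood at 0.662 times. Peroxidase LOC8271940 was listed at 0 in D2 and in L2, with 0.066 FPKM in L1 and 0.136 in L3, so it gives no direction.

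Of the 29 named genes outside the set, 24 passed a filter of at least 1 FPKM in at least 2 of D1, D3, L1, L2 and L3. Over these libraries limma, with Benjamini-Hochberg adjustment over 15925 genes, called 3 of them higher and 2 lower (log2 fold change of 2 or more in size, adjusted p under 0.05), against 1.34% called higher and 1.19% called lower of all genes tested. The 3 that rose were HSP7C (log2 fold change of log2(FPKM + 1) 2.66, standard error 0.32, adjusted p = 0.0163), PER (2.22, standard error 0.30, adjusted p = 0.0185) and peroxidase LOC8289058 (2.36, standard error 0.30, adjusted p = 0.0172). The 2 that fell were EXPB3 (LOC8262087), of the expansins that loosen cell walls (log2 fold change -2.36, standard error 0.45, adjusted p = 0.0350), and Mad2 (LOC8278426), of the spindle checkpoint (-2.32, standard error 0.46, adjusted p = 0.0377). The list was picked by the study from the same libraries, so these counts are not independent evidence of a direction. Without D1 or without D3, and with all 6 libraries, limma called 0 of the 29 genes, against 13, 17 and 6 at an unadjusted p under 0.05. Without D1 or D3 the dwarf variety is 1 library, only L1 to L3 give a spread and the lone library is assumed to vary as they do, so the lost calls are not read as weaker differences.

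The same limma fit tested all 140 members and called 131 of them higher, beside 214 genes called higher of 15925. As the rule used this contrast, nothing is read from that count. With D2 kept as a dwarf library, 0 members passed among 16236 genes (0% called higher, 0.0123% called lower), and 34 members (24.3%) were higher at an unadjusted p under 0.05, beside 5.14% of all genes tested. D1 and D3 of this contrast chose the members, so nothing is read from that share either.

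Across the members the level in D1 had a median of 29.4 FPKM and ranged between 3.42 and 504, and in D3 the median was 24.6 FPKM, with a range between 2.65 and 387. The medians were 2.39 FPKM in D2, 2.97 in L1, 3.20 in L2 and 3.56 in L3. Levels of at least 100 FPKM were reached by 25 members in D1 and 24 in D3, against 1 in D2 and 0 in each Zhuansihao library. The exception in D2 was LOC8284822. Together the members held 1.41% of all FPKM in D1 and 1.34% in D3, against 0.183% in D2 and 0.144% to 0.179% in L1 to L3. These shares are part of what the rule selected for. A member was listed at 0 only in D2 (1 gene) and in L1 (2 genes).

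**Figure D2:**
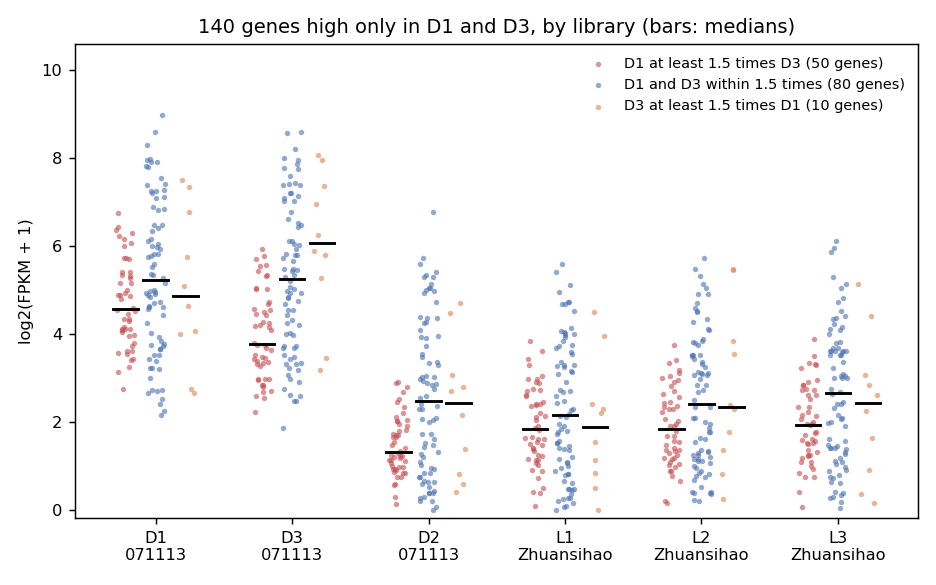
Level of each of the 140 members as log2(FPKM + 1) (y axis) in each library (x axis), with points coloured by the ratio of D1 to D3 and black bars at group medians. D1 and D3 sit above the other libraries by construction; the red genes, with D1 at least 1.5 times D3, have their lowest median in D2, 1.497 FPKM, against 2.58 to 2.82 in L1 to L3.

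The member with the largest rule ratio, 17.5, was LOC8271835. It had 62.5 FPKM in D1 and 52.2 in D3, against 1.297 in D2, 0.380 in L1, 0.986 in L2 and 2.04 in L3. LOC8269485, next but one in the order, had 30.5 and 29.7 FPKM in D1 and D3, against 0.139 in D2 and 0.116, 1.22 and 0.532 in L1 to L3. Outside D1 and D3 neither gene was above 2.04 FPKM. LOC8271861, second in the order and also among the 10 most abundant members, kept a low level elsewhere: it had 241 and 219 FPKM in D1 and D3, against 7.16 in D2 and 14.7, 7.68 and 11.7 in L1 to L3. LOC107262006 came next, and in it D2 had 10.1 FPKM, 2.86 times the Zhuansihao mean. The remaining members of the first 10 by ratio were LOC8282848, LOC8263571, LOC8259985, LOC8263140, LOC8265346 and LOC8274303, with ratios between 7.52 and 9.83.

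The most abundant member was LOC8284822, with 504 FPKM in D1 and 381 FPKM in D3, against 108 in D2, 29.8 in L1, 39.0 in L2 and 60.7 in L3. Its D2 value was above each Zhuansihao library, and its rule ratio of 3.50 placed it low in the order. CLPB1 was the second most abundant. LOC8274303 followed, with 316 and 293 FPKM in D1 and D3, against 38.1 in D2 and 11.8, 7.43 and 25.4 in L1 to L3. The others among the 10 most abundant, after LOC8271861, were LOC8288883, LOC8277303, LOC8282726, LOC8288022, LOC8285757 and LOC8280262, with mean levels of D1 and D3 between 209 and 243 FPKM. Abundance and rule ratio picked mostly different genes, with LOC8274303 and LOC8271861 in both lists of 10.

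At the threshold, the last 3 genes inside were LOC8266662, LOC8276613 and LOC8270894, with ratios of 3.011, 3.006 and 3.003, and the first 3 outside were LOC8281598, LOC8277224 and LOC8277868, with ratios of 2.998, 2.989 and 2.978. LOC8270894 had 3.42 and 2.65 FPKM in D1 and D3, against 0.193 in D2 and 0.0626 to 0.215 in L1 to L3. LOC8281598 had 15.6 and 15.2 FPKM in D1 and D3, against 0.949 in D2 and 0.953, 4.284 and 4.404 in L1 to L3. The boundary cuts through a continuous range, since 236 rows had a ratio between 2 and 3.

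D2 decided 45 rows. Against L1, L2 and L3 alone, 185 rows met the ratio, of which 140 (75.7%) are members. Of the other 45, D2 itself met the ratio against Zhuansihao in 9, and in 36 it was too high for the rule without reaching that ratio. Among the members, D2 was below all 3 Zhuansihao libraries in 66, within their range in 49 and above them in 25. In the 13277 other rows with D1 and D3 of at least 2.65 FPKM, the lowest value of a member, the shares were 34.9% below, 32.5% within and 32.6% above, against 47.1%, 35.0% and 17.9% in members. The rule itself caps D2 in members. In each of the 45 rows that D2 removed, D2 was above all 3 Zhuansihao libraries. The shares in members are thus in part fixed by the rule, and nothing is read from their difference from the other rows.

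In 4 members D2 was at least 2 times each Zhuansihao library, so a part of the rise was present in D2. These were CLPB1, LOC8286753, LOC8258425 and LOC107262006. LOC8286753 had 45.2 and 43.6 FPKM in D1 and D3, against 5.01 in D2 and 0.936, 0.693 and 1.66 in L1 to L3. LOC8258425 had 166 and 148 FPKM in D1 and D3, against 30.6 in D2 and 4.41, 4.60 and 10.5 in L1 to L3. All 4 had D1 and D3 within 1.5 times of each other. At the other end, D2 was at most 0.5 times each Zhuansihao library in 8 members, of which 6 had D1 at least 1.5 times D3.

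The ratio of D1 to D3, which the rule did not fix, separated the members. D1 was at least 1.5 times D3 in 50 genes (35.7%), the 2 libraries were within 1.5 times of each other in 80 (57.1%), and D3 was at least 1.5 times D1 in 10 (7.14%). Of the 13277 other rows, 2.67% had D1 at least 1.5 times D3 and 4.86% the reverse, and their median ratio of D1 to D3 was 1.00. On the log2 scale, 28 members had a D1 to D3 ratio between 0 and 0.2, then 12 and 7 in the next 2 steps of 0.2, and 31 between 0.6 and 0.8. The histogram thus had 2 crests. The split at 1.5 was chosen after these values were seen and was given no test.

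**Figure D3:**
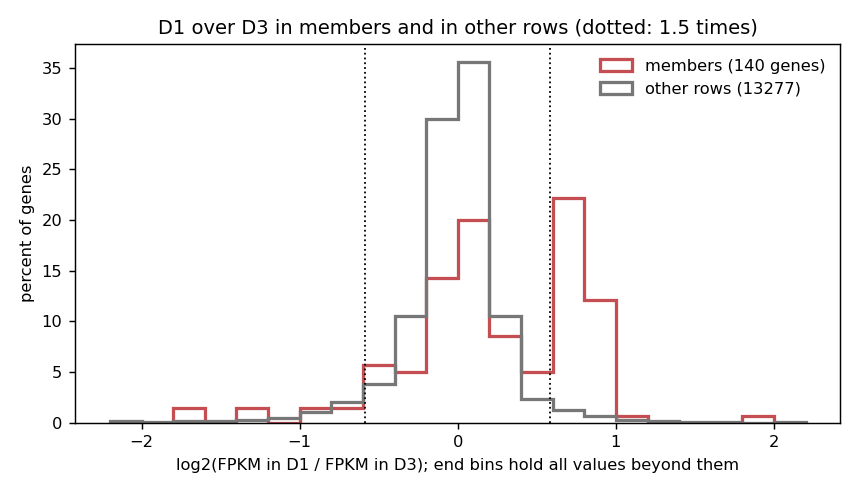
Percent of genes (y axis) by log2 of the ratio of D1 to D3 (x axis, steps of 0.2), for the 140 members in red and 13277 other rows in grey, with dotted lines at 1.5 times in either direction. The other rows form 1 crest near 0, while the members have a further crest between 0.6 and 1, where 48 of them lie.

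The 50 genes with D1 over D3 are described here by their profile over the libraries, which the split at 1.5 and the rule in part fix, since the rule caps the other 4 libraries relative to D3. The ratio of D1 to D3 had a median of 1.67 with quartiles of 1.59 and 1.78. Relative to D3, the median was 0.109 in D2, 0.188 in L1, 0.184 in L2 and 0.188 in L3, so the 3 Zhuansihao libraries were level with each other and D2 was lower. D2 was below each Zhuansihao library in 39 of the 50 and above each in 1. The highest Zhuansihao library was under 2 times the lowest in 43 of the 50 (86.0%), against 87.1% of the other rows, with a median of 1.31 times, against 1.29 times in the other rows. PME45 and PGLR belong to this group, and their ratios of D1 to D3 lay within its quartiles. The widest ratio, 3.99, was that of LOC8277698, which had 22.1 and 5.54 FPKM in D1 and D3, against 0.772 in D2 and 0.636, 0.143 and 0.663 in L1 to L3.

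The 80 genes with D1 and D3 alike were more varied. Their median ratio of D1 to D3 was 1.04, and their median level in D1 was 36.2 FPKM, against 22.9 FPKM in the genes with D1 over D3. D2 was above each Zhuansihao library in 23, within their range in 32 and below in 25. The Zhuansihao libraries were less even here, with the highest a median of 1.81 times the lowest where neither was listed at 0. CLPB1 and NAC belong to this group, as did 9 of the 10 most abundant members and 16 of the 17 members with a rule ratio of at least 6, among which 0 had D1 at least 1.5 times D3. That share was 35.4% at ratios between 4 and 6, 44.0% between 3 and 4, and 20.3% in the 236 rows between 2 and 3, outside the set. The rule ratio takes the lower of D1 and D3, so genes with D1 over D3 are scored by D3. Their lower place in its order is thus in part built in. The mean of D1 and D3 over the Zhuansihao mean had a median of 7.07 in those genes and 8.01 in the genes with D1 and D3 alike.

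In the 10 genes with D3 over D1, L2 was the highest of the 4 low libraries in 7, and L1 was the lowest of the 4 in 7. Among all members these shares were 32.9% and 27.9%, and among the 13277 other rows 29.6% and 13.2%. With only 10 genes, the difference was not tested. LOC8285757, the most abundant of them, had 180 FPKM in D1 and 270 FPKM in D3, against 21.2 in D2, 14.4 in L1, 43.4 in L2 and 20.3 in L3. LOC8263571 had 108 and 164 FPKM in D1 and D3, against 7.36 in D2 and 3.86, 10.7 and 7.35 in L1 to L3. In both, L2 stood above the other Zhuansihao libraries.

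**Figure D4:**
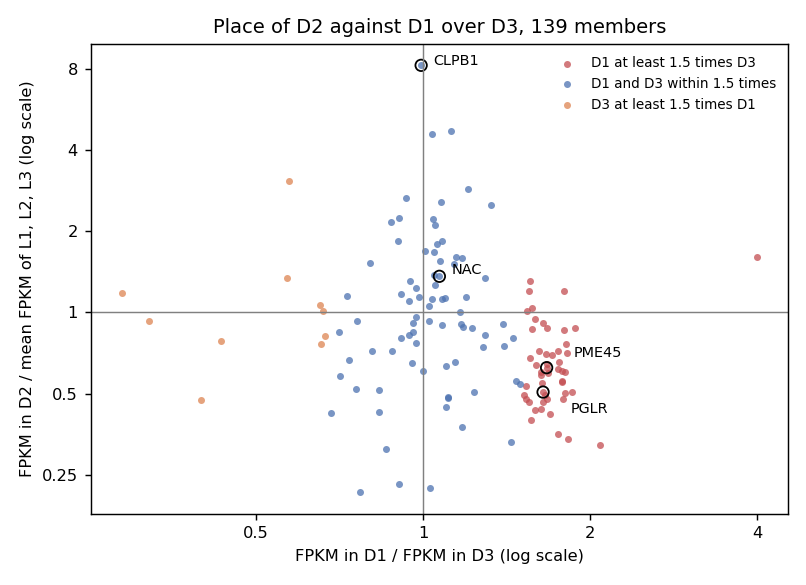
Ratio of D2 to the Zhuansihao mean (y axis, log scale) against the ratio of D1 to D3 (x axis, log scale) for the 139 members with a D2 value above 0, 1 point per gene, coloured as in the plot of levels by library. The genes with D1 over D3 lie mostly under 1 on the y axis (median 0.604), and CLPB1 is the highest point at 8.24.

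Some members lay near each other in the genome, which the rule did not use. The 139 members found in the RefSeq table were placed by the order of the table's genes in assembly ASM1957865v1, which may not be the build of the files. With no other table gene between them, 16 members (11.5%) were next to another member, against 257 of 18207 other genes (1.41%). Within 5 table genes, 30 members (21.6%) had another member, against 1228 other genes (6.74%). The 30 genes formed 14 runs, 12 of 2 genes and 2 of 3 genes. All genes of a run had the same relation of D1 to D3 in 11 of the 14, with D1 higher in 6 runs and D1 and D3 alike in 5. Among all members, 35.7% had D1 higher and 57.1% had D1 and D3 alike, so unlinked members would also often match. Whether the runs match more often than that was not tested. Whether neighbouring members share sequence, so that reads could be counted for more than 1 of them, was not tested.

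PME45 stood in such a run, next to LOC8288421, which had 41.2 FPKM in D1 and 22.2 in D3, against 2.24 in D2, 4.49 in L1, 4.05 in L2 and 4.72 in L3. Its profile ran in parallel with that of PME45, at a lower level. A run of 3 genes, LOC8282136, LOC8282139 and LOC8282140, had D1 over D3 throughout, with 85.9, 34.7 and 65.9 FPKM in D1 and 51.3, 21.0 and 39.2 in D3. In the same genes D2 had 6.38, 2.17 and 4.03 FPKM, the lowest value of the 6 libraries in each. A run of the other kind was LOC8280262 and LOC8280261. LOC8280262 had 226 and 192 FPKM in D1 and D3, against 34.4 in D2 and 24.5, 29.2 and 10.9 in L1 to L3. LOC8280261 had 88.1 and 68.6 FPKM in D1 and D3, against 8.73 in D2 and 11.00, 13.9 and 10.4 in L1 to L3.

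The gene left out by the rule, LOC8259983, is CYP726A18 in the RefSeq table, a cytochrome P450. Members LOC8259985, LOC8259986 and LOC8259973 lay 2, 3 and 5 table genes away from it, and the sources give them no name. LOC8259985 had 14.2 and 15.1 FPKM in D1 and D3 and was listed at 0 in D2 and L1, with 0.667 in L2 and 0.121 in L3. LOC8259986 had 5.26 and 8.07 FPKM in D1 and D3, against 0.508 in D2 and 0.413, 0.748 and 0.273 in L1 to L3. LOC8259973 had 5.70 and 9.95 FPKM in D1 and D3, against 0.315 in D2, 0 in L1, 0.190 in L2 and 0.117 in L3. All 3 were low in D2 as well as in Zhuansihao, which the rule requires of every member.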

How the data were processed

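The authors sequenced poly(A) mRNA on the Illumina HiSeq platform and deposited FPKM values per gene and library, with replicates not pooled and D2 included. Which aligner, counter, gene models and genome build they used is not given in the sources used here. Here the rule was applied to the deposited FPKM in Python 3.11.15 with pandas 2.3.3. Its members, the lists and the split of D1 to D3 at 1.5 were chosen with earlier results of these data known. Genes named are the members the study names, the 10 with the largest ratio, the 10 most abundant and 3 on each side of the threshold; other IDs were chosen after their values were seen. No source used here gives gene descriptions or sequences, so lists by description, protein relatives and promoter motifs were not analysed here. Count models could not be run on FPKM, so limma 3.58.1 in R 4.3.3 was run on log2(FPKM + 1), with a mean-variance trend. On simulated data for the comparison of D1 and D3 with Zhuansihao (15925 genes), the fit called 188 of 200 genes shifted by a log2 value of 3, with 2 false calls. The shifted genes were drawn only from those with a high mean level, and the noise was normal and independent between libraries. Genes as low as PER, peroxidase LOC8289058 and Mad2 LOC8278426 were not among them. The shift of 3 was also larger than the log2 fold changes of the named genes called, 2.22 to 2.66 in size. That share thus covers neither such low genes nor such smaller changes. FPKM gives no number of fragments, so no counting interval is given. Alternatives were other pseudocounts, ratios, filters and scalings, limma options, a replicate block, all 6 libraries and each library left out.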

Additional observations from a re-analysis of the deposited data

How the results depend on the processing

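The 140 members became 267 with a pseudocount of 0.1, 376 with a ratio of 2 and 65 with a ratio of 4, and 146 to 235 with each library left out in turn (185 without D1, 235 without D3, 185 without D2). All 140 were kept in each of these but the ratio of 4, where 65 were kept. That was fixed in advance, since a lower pseudocount, a lower ratio or a library fewer can only loosen the rule. It says nothing on how stable the membership is. The other alternatives gave 140 to 176. Among these, scaling of the libraries could have dropped members, and it kept all 140. The 50 genes with D1 at least 1.5 times D3 became 97 with a pseudocount of 0.1, 98 with a ratio of 2, 17 with a ratio of 4 and 36 to 57 with splits at 1.6 to 1.3; scaling gave 51 and 52. The alternatives for this group and for neighbours were chosen after seeing the data. The window for neighbours gave 16 members at 1 gene and 39 at 10 genes.

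Of the named genes outside the set, limma called 5 of 29. The count was 13 with a pseudocount of 0.1, 8 with 0.5, 2 with a mean FPKM of at least 5, 13 without the fold threshold, 0 with all 6 libraries and 0 to 5 with each library left out (0 without D1 or D3, where the dwarf variety is 1 library, and 3 without L3). With the replicate block it was 0, against 21 at an unadjusted p under 0.05. In that fit L2 has no dwarf partner, since D2 is left out, and little remains to estimate a spread. The calls lost there are thus not read as weaker differences. The libraries share only a number: deviations from the variety mean correlated across genes at -0.47 for D1 and L1, -0.55 for D2 and L2 and 0.33 for D3 and L3. For D2 and L1, which do not share a number, the correlation was 0.63. The causes were not tested. The alternatives planned for protein relatives of the members were not run, since no protein sequences were used here.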
